A study of Mus musculus with 7 samples.

Results

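Genes of steroid hormone synthesis, sterol metabolism and the response to gonadotropins were followed in the deposited comparison of *Ctcf*-cKO and wild-type mouse testes. A gene was taken when the table placed its transcript cluster in the class Coding or Complex and gave it a Gene Ontology biological process term containing steroid, sterol, androgen, luteinizing or gonadotropin, a search in which sterol also finds cholesterol. *Lhcgr*, *Cyp11a1* and *Cyp17a1* were taken by symbol as well, and rows that share a first symbol were merged into a single gene. This gave 69 of the 3997 coding genes with a row, or 1.73%. Of these, 51 had a steroid term, 40 a sterol term and 24 both, and 8 had a term with androgen, luteinizing or gonadotropin.

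RNA was prepared from seminiferous tubules of adult males after removal of the tunica albuginea, the capsule of the testis, and was hybridized to whole-transcriptome GeneChip arrays, with 3 wild-type and 4 *Ctcf*-cKO mice on an array each. *Ctcf*-cKO mice (*Stra8-iCre-Ctcf* f/Δ) carried a floxed and an already deleted *Ctcf* allele and a Cre transgene driven by the *Stra8* promoter, which is active in spermatogonia and in pre-leptotene spermatocytes. The somatic cells of the testis, among them Leydig and Sertoli cells, are not targeted by this transgene. They still carried the already deleted allele, so they too differed in genotype from the wild-type group. The paper counts *Ctcf* f/Δ mice without Cre as heterozygotes and reports smaller testes in heterozygotes. No heterozygous mice were on arrays, and the part of this allele in the differences was not tested. The wild-type group consisted of littermates without inactivation (*Ctcf* f/f, wt/f or wt/wt), so that the controls could carry floxed alleles too. The background is written C56BL/6J in the study's methods. The table gives, for each transcript cluster, the authors' average log2 signal per genotype and no value of a single array. Every value below is therefore an authors' average over 3 or 4 arrays, or the difference between the averages of both genotypes, with no spread between mice and no test. Only clusters that passed the authors' limits, a 2-fold difference with an unadjusted p of 0.05, are in the table, so that having a row is no finding about a gene, and nothing can be said here of genes that lack a row. *Ctcf* itself has no row, so the knockout could not be checked here in the RNA of its target. The paper reports less CTCF protein in immunoblots of *Ctcf*-cKO testes. Its staining showed no CTCF in spermatocytes and spermatids, and CTCF still present in Sertoli, Leydig and spermatogonial cells.

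In the testis, luteinizing hormone from the pituitary acts on its receptor on Leydig cells, which lie between the tubules, and these cells turn cholesterol into testosterone through a chain of mitochondrial and endoplasmic reticulum enzymes. The cholesterol is made in the cell, taken up from lipoproteins or released from stored esters, and its synthesis is governed by the sterol-sensing proteins of the endoplasmic reticulum. Testosterone and follicle-stimulating hormone act on Sertoli cells, which nurse the germ cells.

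The promoters of 4 of these genes are shown because they stand for the signal, the regulation and the synthesis steps that follow. *Lhcgr* encodes the luteinizing hormone receptor and had the largest difference, *Nr0b1* encodes a nuclear receptor that restrains steroid synthesis, and *Hmgcs1* and *Dhcr7* encode an early and a late enzyme of cholesterol synthesis. The sequences are from RefSeq (GRCm38.p6), run 5′ to 3′ on the strand of the gene and hold the 250 bases before the annotated start: *Lhcgr* at chr17:88792015-88792264 (minus strand), *Nr0b1* at chrX:86191525-86191774 (plus strand), *Hmgcs1* at chr13:119690101-119690350 (plus strand) and *Dhcr7* at chr7:143822917-143823166 (plus strand, the first of its annotated starts). Capitals mark matches, on either strand, to the NR5A1 site AAGGTCA, the sterol regulatory element TCACNCCAC bound by SREBP, or the TATA box TATAAA.
Lhcgr: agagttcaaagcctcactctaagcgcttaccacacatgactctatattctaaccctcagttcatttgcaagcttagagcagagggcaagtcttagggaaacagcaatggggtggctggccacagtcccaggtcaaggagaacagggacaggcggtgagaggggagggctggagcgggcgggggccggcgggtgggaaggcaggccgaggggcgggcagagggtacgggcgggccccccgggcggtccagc
Nr0b1: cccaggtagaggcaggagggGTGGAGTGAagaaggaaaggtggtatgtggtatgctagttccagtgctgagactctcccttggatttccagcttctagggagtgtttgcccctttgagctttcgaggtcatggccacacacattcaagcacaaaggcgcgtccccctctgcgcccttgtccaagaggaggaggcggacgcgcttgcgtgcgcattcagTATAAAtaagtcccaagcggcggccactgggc
Hmgcs1: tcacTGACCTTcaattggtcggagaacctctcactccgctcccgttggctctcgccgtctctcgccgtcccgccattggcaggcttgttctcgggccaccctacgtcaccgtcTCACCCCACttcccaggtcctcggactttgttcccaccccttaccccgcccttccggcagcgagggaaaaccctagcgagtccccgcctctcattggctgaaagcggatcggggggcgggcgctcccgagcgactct
Dhcr7: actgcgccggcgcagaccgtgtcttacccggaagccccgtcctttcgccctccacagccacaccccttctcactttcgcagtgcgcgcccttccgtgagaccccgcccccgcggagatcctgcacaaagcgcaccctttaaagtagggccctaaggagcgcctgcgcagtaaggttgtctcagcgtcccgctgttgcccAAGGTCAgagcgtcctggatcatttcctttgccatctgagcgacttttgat

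The *Lhcgr* window held none of these motifs. In *Nr0b1* the capitals are a sterol regulatory element on the opposite strand at position -230 and a TATA box at -32, counted from the start. In *Hmgcs1* they are an NR5A1 site on the opposite strand at -246 and a sterol regulatory element at -137. *Dhcr7* held an NR5A1 site at -51, and the windows of its other annotated starts held none of these motifs. RefSeq promoter windows, here 250 bases before to 50 bases after a start, were given for 53 of the 69 genes, with 61 windows in all. The NR5A1 site was in 3 of the 61 windows (4.92%), the third being that of *Nr6a1*, against 4.72% of all 32851 windows of the reference. The sterol regulatory element was in 2 windows (3.28%), those of *Hmgcs1* and *Nr0b1*, against 1.24%. The promoters shown were picked by hand and hold most of the matches to these 2 motifs, so they are not typical of the set. The full cAMP response element TGACGTCA was in 1 window (1.64%), of *Nr6a1*, against 1.79%, and the TATA box in 8 windows (13.1%) of 7 genes against 13.6%. The motifs do not overlap one another in these windows, and a match in the letters does not show that a factor binds there.

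Most of the 69 genes had the higher average signal in *Ctcf*-cKO testes. The average was higher in *Ctcf*-cKO for 59 genes (85.5%) and lower for 10 (14.5%), whereas of all coding genes with a row 38.7% were higher and 61.3% lower. The median difference of the 69 genes was 1.6 on the log2 scale, with a range from -1.39 to 2.97, and that of all coding genes with a row was -1.12. Among the higher genes alone the median was a linear fold of 3.23, compared with 2.51 for all higher coding genes. Among the lower genes alone it was 2.19, compared with 2.45 for all lower coding genes. A difference of at least 4-fold upwards was seen in 15 of the 69 genes (21.7%) and in 2.5% of all coding genes with a row. The least of these was *Sult1a1*, which encodes a phenol sulfotransferase, whose average was 7.0 in wild-type testes and 9.0 in *Ctcf*-cKO testes. The next gene was *Acadl* with a linear fold of 3.86. No gene of the set was lower by 4-fold, against 0.4% of all coding genes. With the median difference over all rows (-1.15) subtracted, 65 of the 69 genes (94.2%) and 53.1% of all coding genes with a row lay above 0. Since every row was selected for its fold, this median is not that of the array. The subtraction raises every value, so all higher genes stay above 0 by construction. Lower genes with a difference smaller in size than this median turn by construction.

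**Figure D1:**
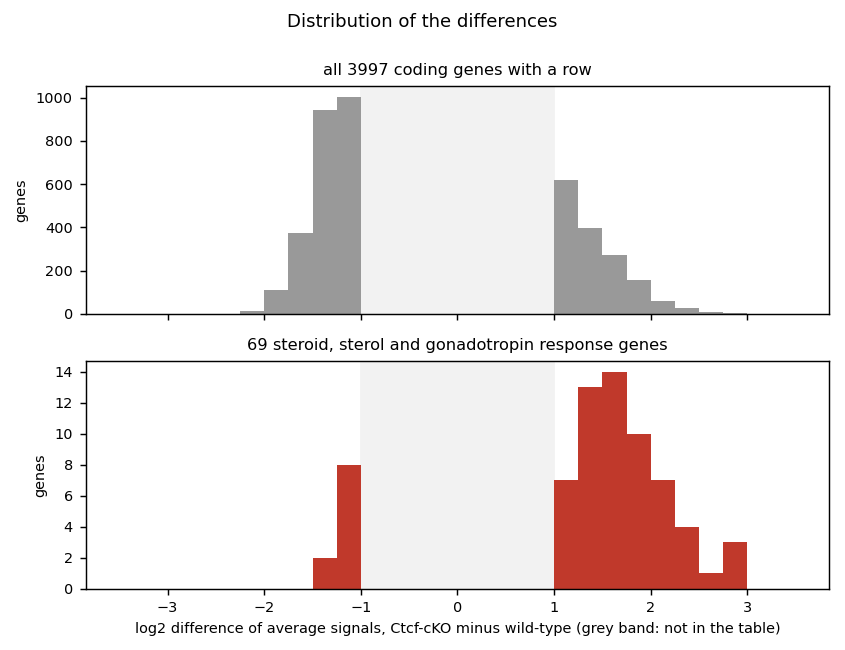
Numbers of genes (vertical axes) by log2 difference of the authors' average signals, *Ctcf*-cKO minus wild-type (horizontal axis, bins of equal width), for all 3997 coding genes with a row (top) and the 69 steroid, sterol and gonadotropin response genes (bottom). The grey band from -1 to 1 is empty because such clusters are not in the table, and 59 of the 69 genes lie to its right, compared with 1547 of the 3997.

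The genes are described below in 6 groups by what their products do, assigned after the values were seen. The counts by group therefore describe the grouping and are no evidence of a difference between groups. For example, *Fabp3* (higher) was placed in transport and *Dgat2* and *Alms1* (lower) in the last group, although cholesterol homeostasis is the matching term of each. *Pla2g10* (lower), with terms for cholesterol homeostasis and cholesterol efflux, was placed in the last group too. The plot of average signals by group shows both genotypes for 65 of the genes. All 9 genes of the gonadotropin receptor and of steroid synthesis and all 12 genes of cholesterol synthesis and its control had higher averages in *Ctcf*-cKO. So did 10 of 11 genes of sterol uptake, storage and transport, 9 of 10 other enzymes and 10 of 12 receptors, signals and transcription regulators. The 15 remaining genes, which carry terms for a response or for homeostasis, were divided, with 9 higher and 6 lower.

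**Figure D2:**
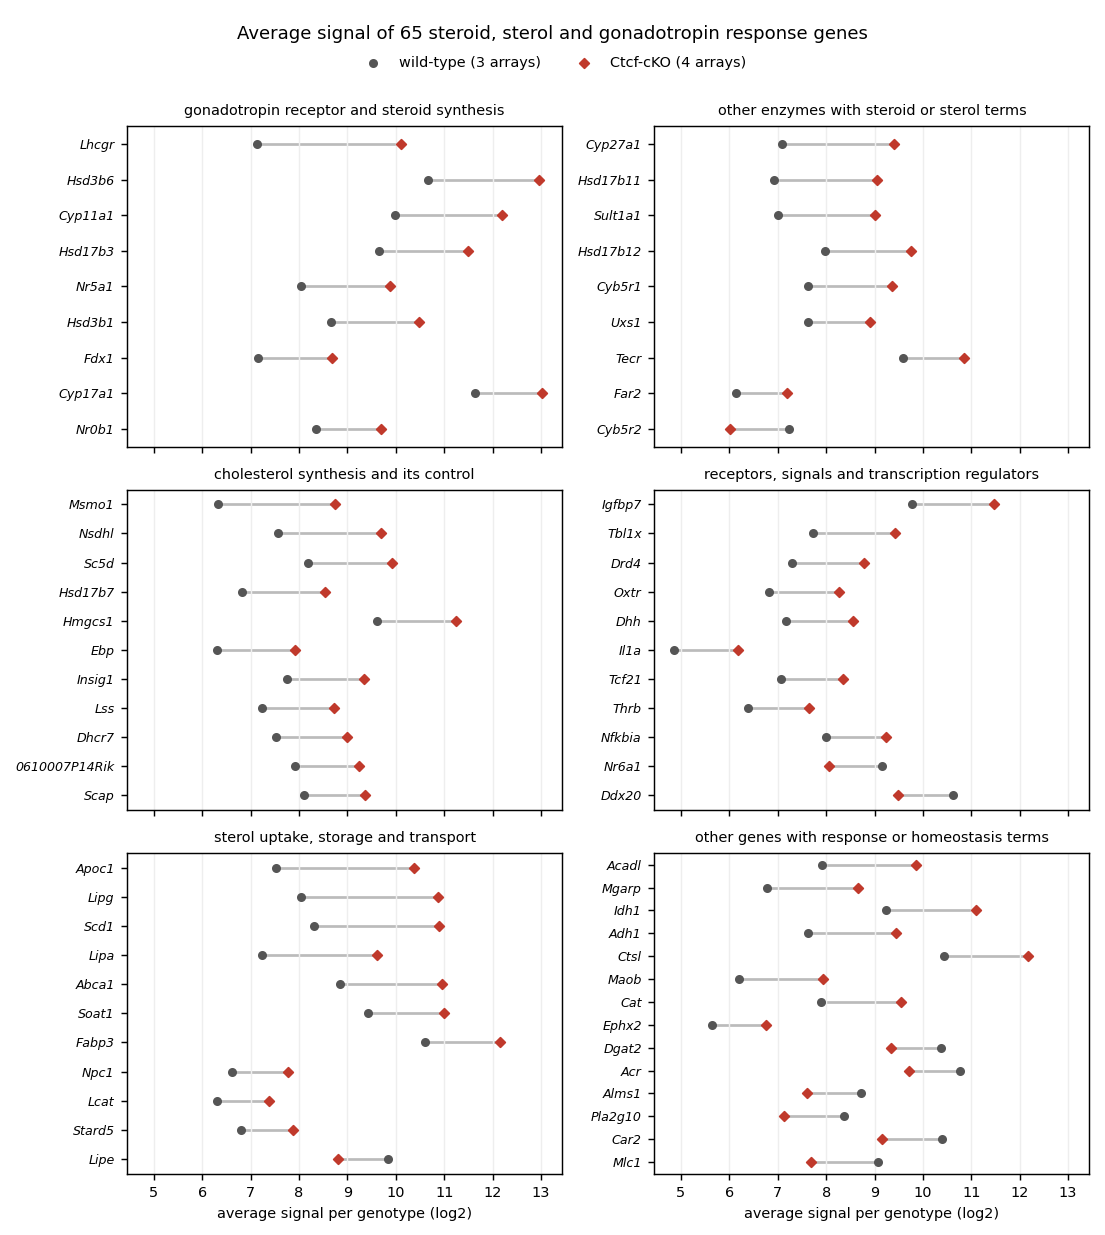
Authors' average log2 signal (horizontal axes) in wild-type (grey circles, average of 3 arrays) and *Ctcf*-cKO (red diamonds, average of 4 arrays) for 65 of the 69 genes, each line joining the averages of a gene. The 6 groups were assigned after the values were seen. The spread between mice is not in the table. The red diamond lies to the right of the grey circle for 55 genes, and the 10 genes with the opposite order lie mostly in the group of response or homeostasis terms, which holds 6 of them.

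The receptor and the enzymes that lead from cholesterol to testosterone were all higher in *Ctcf*-cKO. Where a pair of averages is given from here on, both are log2 signals and the wild-type value comes first. *Lhcgr* (chr17:88716483-88791976, minus strand, positions of its transcript cluster in mm10 as for the genes below) averaged 7.14 in wild-type testes and 10.11 in *Ctcf*-cKO testes, a 7.84-fold difference. *Cyp11a1* (chr9:58015013-58027023, plus strand), which cuts the side chain of cholesterol in mitochondria, averaged 9.99 and 12.19, a fold of 4.59. *Fdx1*, the ferredoxin that passes electrons to this enzyme, averaged 7.15 and 8.68, a fold of 2.89.

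The next step is carried out by dehydrogenase/isomerases, of which *Hsd3b6* (chr3:98805504-98814443, minus strand) averaged 10.66 and 12.95, a fold of 4.89. Its neighbour *Hsd3b1* (chr3:98852194-98859794, minus strand) averaged 8.66 and 10.47, a fold of 3.51. These are closely similar copies, and how far the array's probes separate them is uncertain. *Cyp17a1* (chr19:46667165-46673000, minus strand), which forms the androgen precursors, averaged 11.64 and 13.03, a fold of 2.62. Its *Ctcf*-cKO average was the highest of the set. The last step to testosterone is that of *Hsd17b3* (chr13:64058274-64089201, minus strand), which averaged 9.65 and 11.50, a fold of 3.61. From the first to the last enzyme of the chain the direction was thus the same, with folds between 2.62 and 4.89. The order of these folds is not established without the spread between mice.

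Both nuclear receptors of this group were higher as well. *Nr5a1* (chr2:38692656-38714542, minus strand) encodes steroidogenic factor, an activator of these enzyme genes, and averaged 8.05 in wild-type testes and 9.89 in *Ctcf*-cKO testes, a 3.58-fold difference. *Nr0b1* (chrX:86191764-86195947, plus strand), whose product represses NR5A1 activity, averaged 8.35 and 9.70, a fold of 2.55. The activator and its repressor thus had the same direction.

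In a wider list of 22 steroidogenesis genes, 12 had a row, of which 11 were higher and 1 lower. Of these, 10 belong to the set. The other two were *Star*, which brings cholesterol into the mitochondrion and carries no biological process term in the table (9.07 and 11.22, a fold of 4.44), and *Cyb5a*, a cytochrome that assists *Cyp17a1* (7.69 and 8.97, a fold of 2.43). The lower gene was *Lipe*, described with the sterol esters below. Of 24 genes of gonadotropin and related hormone signalling, 7 had a row and all 7 were higher, with a median log2 difference of 2.15. Only 2 of the 7, *Lhcgr* and *Cyp17a1*, belong to the set. Outside it are *Star*, given above, and 4 further genes. Of these 4, *Fshr*, the receptor for follicle-stimulating hormone, averaged 6.20 and 8.48, and *Prlr*, the prolactin receptor, 7.35 and 9.60. *Inha*, the inhibin alpha subunit, averaged 9.95 and 12.01, and *Amhr2*, the receptor of anti-Müllerian hormone, 9.21 and 10.90.

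Markers of somatic cells were mostly higher and those of spermatocytes and spermatids lower in the same averages. These are relative values, and some lower markers turned after the subtraction given below. Of 12 Leydig cell markers 11 had a row and all 11 were higher in *Ctcf*-cKO, with wild-type averages of 7.14 to 11.64, *Ctcf*-cKO averages of 9.27 to 13.03 and a median log2 difference of 1.9. The defining Leydig marker *Insl3* has no row. Of 14 Sertoli cell markers 12 had a row and all 12 were higher (6.2 to 11.03 in wild-type, 8.48 to 12.14 in *Ctcf*-cKO), with a median of 1.6. Of 12 macrophage markers 7 had a row, 6 of them higher, with a median of 1.59 and averages of 6.05 to 10.17 (wild-type) and 7.92 to 9.98 (*Ctcf*-cKO). Of 8 peritubular myoid markers 4 had a row, of which 3 were higher, and both listed endothelial markers of 9 were higher. By contrast, all 7 listed markers of primary spermatocytes out of 9 and all 9 listed markers of round spermatids out of 10 were lower, with medians of -1.23 and -1.26. *Kit* was the listed spermatogonial marker of 9 (2.28 higher), and 2 of 11 markers of elongating spermatids were listed, both lower. Subtracting the median difference over all rows (-1.15) raises every value. All 11 Leydig and 12 Sertoli markers thus stayed above 0 by construction, with medians of 3.04 and 2.75. Of the germ cell markers, 2 of 7 for spermatocytes, 3 of 9 for round spermatids and both for elongating spermatids then lay above 0. The medians were -0.08 for spermatocytes and -0.12 for round spermatids. Because every row was selected for its fold, the median over all rows is not that of the array. Lower genes with a difference smaller in size than that median turn by construction, so these turns are no check of the scaling. Averages were given for Leydig cell markers although tubules were the stated source of the RNA.

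The Leydig list is not separate from the set: 7 of the 69 genes are on it (*Lhcgr*, *Cyp11a1*, *Hsd3b1*, *Hsd3b6*, *Cyp17a1*, *Hsd17b3* and *Fabp3*), and *Dhh* is on the Sertoli list and *Acr* on that of round spermatids. Without these 9 genes, 51 of 60 were higher and 9 lower, with a median log2 difference of 1.59. Without the genes of the steroidogenesis list as well, 48 of 56 were higher, with a median of 1.6. In bulk tissue, more cells of a type and more RNA of a gene per cell cannot be told apart, and the part that the makeup of the tissue has in these differences was not tested.

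**Figure D3:**
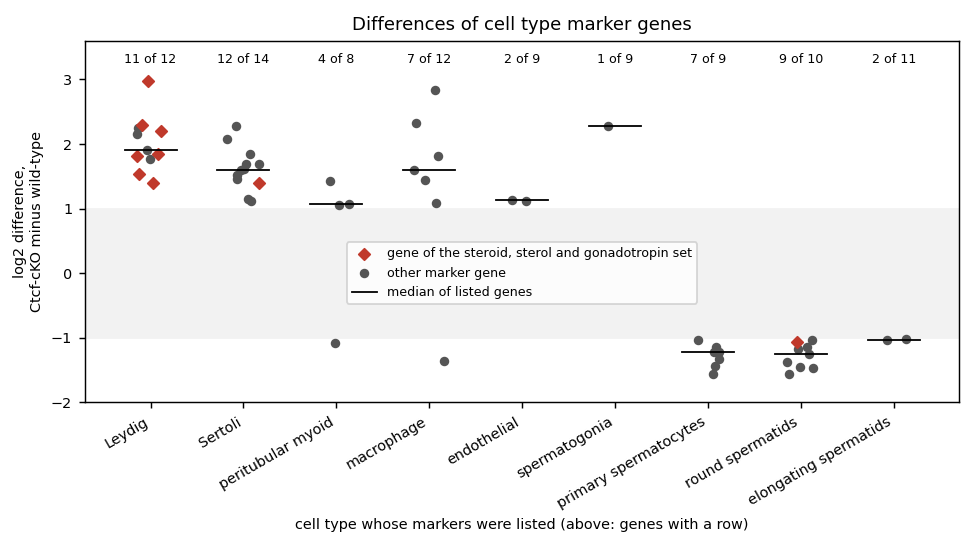
Log2 difference of the authors' average signals, *Ctcf*-cKO minus wild-type (vertical axis), for listed marker genes of 9 testicular cell types (horizontal axis); red diamonds are genes of the steroid, sterol and gonadotropin set, grey circles are other markers, black lines are medians, and the numbers above give the markers with a row out of those listed. All 11 Leydig and 12 Sertoli markers with a row lie above the empty grey band, and all 7 spermatocyte and 9 round spermatid markers lie below it. With the median over all rows subtracted, 2 and 3 of the latter lay above 0. Any lower marker with a difference smaller in size than that median must do so.

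All genes of cholesterol synthesis with a row were higher in *Ctcf*-cKO. Of 21 enzymes taken in pathway order, 10 had a row, all higher, with a median log2 difference of 1.67 and a range of 1.3 to 2.43. From lanosterol synthase onwards 8 of 11 enzymes had a row, with a median of 1.73, compared with 2 of 10 before it, counts that describe the table and not the levels of the enzymes it leaves out. Among the enzymes without a row before lanosterol synthase were *Mvk*, *Pmvk*, *Mvd*, *Idi1*, *Fdps*, *Fdft1* and *Sqle*, and those after it were *Cyp51*, *Tm7sf2* and *Lbr*. The table used here does not show whether these 11 enzymes missed its limit on the fold or that on the p.

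Before lanosterol synthase, *Hmgcs1* (chr13:119690446-119708086, plus strand), which makes the precursor of mevalonate and whose promoter is shown above, averaged 9.62 and 11.25, a fold of 3.10. *Acat2*, which supplies its substrate and carries no term of the set, averaged 7.54 and 8.84, a fold of 2.46. *Lss*, lanosterol synthase itself, averaged 7.23 and 8.72, a fold of 2.81. The entry to the pathway and the closure of the sterol ring thus had the same direction. The largest difference of the pathway was that of *Msmo1*, an oxidase that starts the later methyl removal from the sterol ring, which follows that by *Cyp51*, and which averaged 6.32 and 8.75, a fold of 5.39. Its partners in this later removal, *Nsdhl* and *Hsd17b7*, averaged 7.57 and 9.69 (4.35-fold) and 6.82 and 8.54 (3.29-fold). *0610007P14Rik*, named *Erg28* in RefSeq and thought to hold these enzymes together, averaged 7.92 and 9.25, a fold of 2.51. These 4 genes of the later demethylation thus had higher averages, whereas *Cyp51*, of the earlier one, has no row.

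The isomerase gene *Ebp* averaged 6.30 and 7.91 (3.05-fold) and the desaturase gene *Sc5d* 8.19 and 9.93 (3.34-fold). The reductase gene *Dhcr7* (chr7:143823145-143848410, plus strand), whose promoter is shown above, averaged 7.52 and 8.99 (2.77-fold). Without the spread between mice the order of folds within the pathway is not established.

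**Figure D4:**
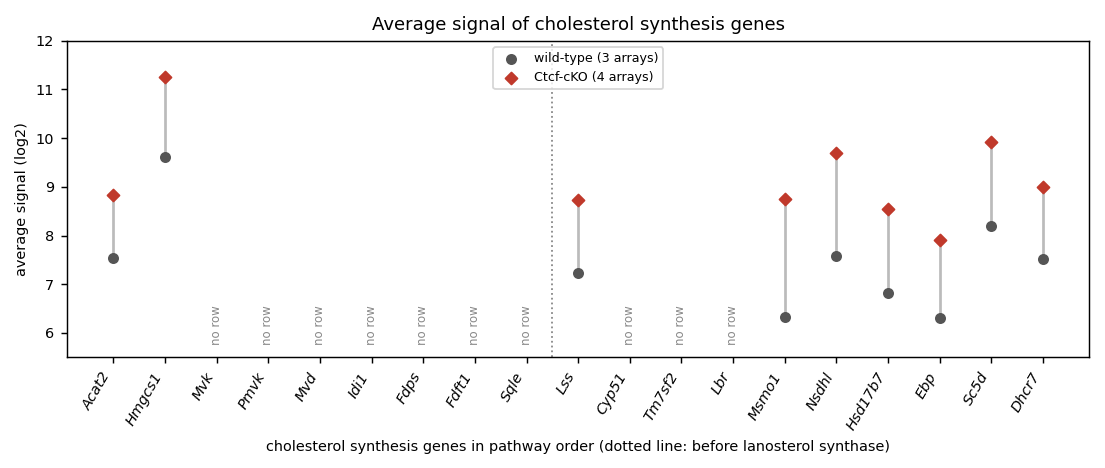
Authors' average log2 signal (vertical axis) of 19 enzymes of cholesterol synthesis in pathway order (horizontal axis) in wild-type (grey circles, 3 arrays) and *Ctcf*-cKO (red diamonds, 4 arrays); the dotted line stands before lanosterol synthase and genes without a row are marked. Rows are given for 2 of the 9 enzymes drawn left of the line and 7 of the 10 right of it, and the *Ctcf*-cKO average is the higher in all 9.

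Of 18 genes of sterol sensing only 3 had a row. *Insig1*, whose product keeps the SREBP complex in the endoplasmic reticulum when sterols are plentiful, averaged 7.75 and 9.35, a fold of 3.03. *Scap*, the escort of SREBP, averaged 8.10 and 9.37, a fold of 2.41. *Erlin1*, which is not in the set, was lower, with 8.98 and 7.90. The genes of SREBP itself, *Srebf1* and *Srebf2*, have no row.

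Of the 11 genes placed in the group of sterol uptake, storage and transport, 10 were higher. This group was assigned after the values were seen, and lower genes with cholesterol homeostasis terms were placed in the last group. *Apoc1*, an apolipoprotein, averaged 7.52 in wild-type testes and 10.37 in *Ctcf*-cKO testes, a 7.21-fold difference. *Lipg*, a phospholipase of lipoproteins, averaged 8.05 and 10.88, a fold of 7.11. After *Lhcgr* these were the largest differences in the set.

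Within the cell, *Lipa*, the lysosomal lipase that frees cholesterol from lipoprotein esters, averaged 7.23 and 9.62 (5.24-fold), and *Npc1*, which lets cholesterol leave the lysosome, 6.61 and 7.78 (2.25-fold). *Soat1*, which esterifies cholesterol for storage, averaged 9.42 and 11.0 (2.99-fold), and *Scd1*, which makes the unsaturated fatty acids preferred for such esters, 8.31 and 10.90 (6.02-fold). *Lipe*, the hormone-sensitive lipase that hydrolyses stored esters, was the exception, with 9.84 in wild-type and 8.80 in *Ctcf*-cKO, 2.06-fold lower. The genes of the esterifying and the hydrolysing enzyme thus had opposite directions in these bulk averages. Whether both signals come from the same cells was not tested. The difference of *Lipe* became 0.1 when the median difference over all rows (-1.15) was subtracted, a turn that follows from its size being below that of the median.

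*Abca1*, which exports cholesterol to lipoproteins, averaged 8.85 and 10.96, a fold of 4.32. *Lcat*, which esterifies cholesterol in lipoproteins, averaged 6.31 and 7.39 (2.11-fold), the sterol-binding gene *Stard5* 6.81 and 7.87 (2.08-fold) and *Fabp3*, a fatty acid carrier, 10.61 and 12.15 (2.91-fold). In a wider list of 35 genes of sterol uptake, transport and storage, 14 had a row, 13 of them higher and *Lipe* lower, with a median log2 difference of 1.57. The 6 outside the set were the lipoprotein receptor *Lrp1* (difference 1.67), the scavenger receptor *Cd36* (1.96), *Apoe* (1.73), the phospholipid transfer gene *Pltp* (1.56), *Cav1* (1.11) and *Anxa2* (1.34). *Scarb1*, a receptor for lipoprotein cholesterol, has no row.

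Among the other enzymes with steroid or sterol terms, 9 of 10 were higher. *Cyp27a1*, a mitochondrial enzyme that hydroxylates the side chain of cholesterol, averaged 7.08 and 9.40, a fold of 4.99. *Hsd17b11*, which has a term for androgen breakdown, averaged 6.93 and 9.05 (4.35-fold), and *Hsd17b12*, which also acts in fatty acid elongation, 7.98 and 9.76 (3.43-fold).

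Several genes of this group carry the term steroid biosynthetic process but are better known for other reactions. They are *Tecr*, of fatty acid elongation (9.58 and 10.85), *Uxs1*, of nucleotide sugar synthesis (7.62 and 8.91), and *Far2*, of fatty alcohol synthesis (6.14 and 7.19), whose difference of 1.05 was the smallest upward one in the set. The cytochrome b5 reductases were split, with *Cyb5r1* higher (7.62 and 9.37, 3.36-fold) and *Cyb5r2* lower (7.24 and 6.01, 2.35-fold). In a list of 35 genes of steroid conversion and inactivation 5 had a row, all higher, with a median log2 difference of 2.12. The pair outside the set was *Sult1e1*, the estrogen sulfotransferase (7.92 and 10.43, 5.70-fold), and *Hsd17b10* (7.35 and 8.71, 2.57-fold).

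Of 12 receptors, signals and transcription regulators, 10 were higher and 2 lower, with a median log2 difference of 1.36. *Thrb*, a nuclear receptor for thyroid hormone, averaged 6.39 and 7.65 (2.39-fold). *Nr6a1*, an orphan receptor also called germ cell nuclear factor, was lower, with 9.16 and 8.05 (2.16-fold). *Dhh*, the hedgehog ligand by which Sertoli cells signal to Leydig cells, averaged 7.17 and 8.56, a fold of 2.62.

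The surface receptors of this group were *Drd4*, for dopamine (7.29 and 8.79), and *Oxtr*, for oxytocin (6.81 and 8.27). The secreted proteins were *Igfbp7*, which binds growth factors (9.77 and 11.46), and the cytokine *Il1a* (4.86 and 6.18). The remaining regulators with higher averages were the corepressor component *Tbl1x* (7.73 and 9.42), the transcription factor *Tcf21* (7.07 and 8.34) and *Nfkbia*, the inhibitor of NF-κB (7.99 and 9.23). *Ddx20*, an RNA helicase that can repress NR5A1, was lower, with 10.62 and 9.49.

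The receptors that bind sex steroids are not found by the terms used here. In a list of 22 steroid receptors and their partners 7 had a row, 6 of them higher, with a median log2 difference of 1.31. *Esr1*, an estrogen receptor, averaged 6.05 and 7.36, a fold of 2.48. Other higher genes were *Pgrmc1* (difference 2.01), *Nr2f2* (1.60), the chaperone partner *Fkbp5* (1.14) and the coactivator *Ncoa2* (1.12), and the membrane progestin receptor *Paqr5* was lower (-1.09).

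The last group holds genes whose terms concern a response to steroids or gonadotropins or cholesterol homeostasis, and its median log2 difference of 1.15 was the smallest of the 6 groups. Its higher genes were mostly enzymes of oxidation. *Acadl*, of fatty acid oxidation, averaged 7.91 and 9.86. *Idh1*, which makes NADPH in the cytosol, averaged 9.23 and 11.10, *Adh1*, an alcohol dehydrogenase, 7.62 and 9.44, and *Cat*, catalase, 7.90 and 9.54. These enzymes act in several compartments of the cell. *Maob*, a monoamine oxidase, averaged 6.20 and 7.94, and *Ephx2*, an epoxide hydrolase, 5.65 and 6.75. Other higher genes were the protease gene *Ctsl* (10.44 and 12.18) and the mitochondrial gene *Mgarp* (6.78 and 8.66). The differences of the 9 higher genes of this group lay between 1.10 and 1.95.

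The lower genes of this group had differences between -1.39 and -1.03. *Mlc1*, a membrane protein gene best known in brain astrocytes, had the largest downward difference of the set, from 9.07 to 7.68 (2.62-fold). *Car2*, a carbonic anhydrase, averaged 10.40 and 9.15 (2.38-fold) and *Pla2g10*, a secreted phospholipase, 8.37 and 7.13 (2.36-fold). *Alms1*, of centrosomes and cilia, averaged 8.73 and 7.60, *Acr*, the acrosomal protease of sperm, 10.77 and 9.71, and *Dgat2*, which makes triglycerides, 10.38 and 9.35. The last of these was, at -1.03, the downward difference nearest to the limit of the table. After subtraction of the median over all rows, 4 of the 10 lower genes stayed below 0 (*Mlc1*, *Car2*, *Pla2g10* and *Cyb5r2*).

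By term, 25 of 26 genes of steroid biosynthetic process were higher, with a median log2 difference of 1.67, and so were 17 of 18 genes of cholesterol metabolic process (median 1.62) and all 9 genes of cholesterol biosynthetic process (median 1.63). Cholesterol homeostasis was the most divided of the larger terms, with 6 of 9 genes higher and a median of 1.1. All 4 genes with the term response to gonadotropin (*Cyp11a1*, *Cyp17a1*, *Hmgcs1* and *Ctsl*) were higher. A gene can carry several of these terms.

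The cellular component terms placed many of the products in a few organelles. The choice of genes did not use these terms. They are not independent of the process terms that it did use, so the shares may partly follow from the choice. Of the 68 genes with a component term, 25 (36.8%) were in the endoplasmic reticulum, compared with 6.09% of the 3236 coding genes with such a term, and 23 of the 25 were higher. The mitochondrion was named for 19 (27.9%, against 8.34%), of which 16 were higher. The peroxisome was named for 5 (7.35%, against 0.896%), all 5 higher, and the lipid particle for 5 (7.35%, against 0.34%), only 3 of them higher. The lysosome was named for 6 (8.82%, against 2.26%), 5 of them higher, and the extracellular region for 9 (13.2%, against 7.54%), 8 of them higher. The nucleus was named for 17 (25%, against 26%), 12 of them higher. Across all coding genes with a row, 77.7% of those with the endoplasmic reticulum term and 74.1% of those with the mitochondrial term were higher. The share was 90.4% for the lysosome, 82.8% for the peroxisome, 81.8% for the lipid particle, 74.6% for the extracellular region and 49.0% for the nucleus. These shares include the genes of the set. Beside its 85.5%, a mostly higher direction was thus not particular to the set.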

How the data were processed

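Arrays of 3 wild-type and 4 *Ctcf*-cKO mice were analysed through the authors' deposited table of 7580 transcript clusters, which holds their bi-weight average log2 signal per genotype and 0 columns of single-array values. The submitters' processing notes name Affymetrix Expression Console 1.4.1, RMA, Transcriptome Analysis Console 3.0 and mm10. The table's columns of fold change, p and adjusted p, which are the authors' own comparison, were not used. From the averages, log2 differences (*Ctcf*-cKO minus wild-type) and linear folds were computed with python 3.11.15 and pandas 2.3.3, and the rows of a gene were averaged over 3997 coding genes; 18 coding rows without a symbol were left out. A difference between averages has no error or p here, the number of arrays limits its precision, and RMA quantile-scales arrays, so values are relative within an array. The genes and lists were chosen with earlier results of these data known, and the 6 groups were assigned after the values were seen. Named by rule were genes on a list, marker genes and the 10 largest differences in each direction; other genes of the set were named to describe it. RefSeq matched 68 symbols directly and 1 by synonym, and all 69 clusters overlapped their gene. Some genes are counted in the groups but not reported here by name.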

Additional observations from a re-analysis of the deposited data

How the results depend on the processing

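No paired analysis was possible because only averages per genotype were analysed, and leaving out each mouse was not run for the same reason. Using the class Coding alone gave 29 higher and 5 lower genes (85.3% higher), a linear fold of at least 3 gave 35 and 0 (100%), and subtracting the median over all rows (-1.15) gave 65 and 4 (94.2%). With that fold of 3, the higher genes on the lists became 7 from 11 for steroidogenesis, 6 from 13 for sterol uptake, transport and storage, 1 from 2 for sterol sensing and 3 from 6 for steroid receptors; fewer genes pass by construction. That subtraction turned *Acr* to 0.08, *Alms1* to 0.02, *Ddx20* to 0.02, *Dgat2* to 0.12, *Erlin1* to 0.06, *Lipe* to 0.1, *Nr6a1* to 0.03 and *Paqr5* to 0.05. It also turned the marker genes *Actg2* (0.06), *Sycp1* (0.01), *Dmc1* (0.1), *Tssk6* (0.12), *Hook1* (0.01), *Prm3* (0.1) and *Akap4* (0.12), an alternative for the marker lists that was added after seeing the data. Every row was selected for its fold, so that this median is not that of the array. Taking every symbol of a row (60 higher, 10 lower), a log2 average of 6 or more in at least 1 genotype (59 and 10) or steroid and sterol terms alone (57 and 10) left the direction as it was. No gene of the set had over 1 row, so that the choice among rows had no effect. Leaving out marker genes, an alternative chosen after seeing the data, gave 51 and 9, or 48 and 8 without the steroidogenesis list as well. Signal over background was not given in the sources used here; 67 of the 69 genes had both averages at 6 or above.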

Other observations

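Of the non-coding transcript clusters with a row, 13 overlapped 8 genes of the set. On the strand of the gene lay 11 of them, at 6 genes, and all 11 had the direction of the gene, 8 higher and 3 lower in *Ctcf*-cKO. The same count was not made for the other coding genes, so this agreement is not shown to be particular to the set. The cluster within *Cyp11a1* (chr9:58021247-58022329) averaged 5.02 in wild-type testes and 7.77 in *Ctcf*-cKO testes, a log2 difference of 2.75, beside 2.20 for the gene. That within *Abca1* differed by 1.09. The pair within *Tbl1x* differed by 1.47 and 1.53, and the 3 within *Thrb* by 1.60, 1.45 and 1.25. Signals were low here: the *Thrb* clusters averaged 4.4, 5.19 and 4.62 in wild-type and the second *Tbl1x* cluster 5.66. Like the wild-type average of the *Cyp11a1* cluster, these are under 6. The 3 within *Nr6a1* were lower, by -1.17, -1.27 and -1.18. Such a cluster may report the same transcript as the gene around it, which was not tested.

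The other two lay on the opposite strand. That at *Scd1* (chr19:44396324-44396927) averaged 6.21 and 8.03, in the direction of *Scd1*. That at *Il1a* (chr2:129297370-129315245) averaged 7.05 and 5.65 and was lower, whereas *Il1a* was higher by 1.32.

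The 69 genes lay on many chromosomes, with 8 of the 213 coding genes with a row on chromosome 3, 8 of 253 on chromosome 7, 7 of 225 on chromosome 1, 5 of 248 on chromosome 2 and 5 of 365 on chromosome X, beside 1.73% over all chromosomes.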
